A study of Mus musculus with 2 samples.

Results

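The connexin genes encode the subunits of gap junctions, and 9 of them were followed here in total RNA from mouse heart: Gja1, Gja3, Gja4, Gja5, Gja6, Gjb2, Gjc1, Gjc3 and Gjd3. They were chosen by symbol and by no rule on measured values, though with earlier results of these data known. They are 9 of the 20 connexin genes in the annotation and of 55536 annotated genes. The tissue was whole heart from male B6CASTF1/J mice aged 36 days, first-generation hybrids of the B6 and CAST strains, with no treatment named. There was 1 group with 2 biological replicates, called heart 1 and heart 2. Both carry the same donor entry in the labels, which do not say if that entry stands for 1 animal or for the strain. The spread between them may therefore be technical. From each heart, 300 ng of RNA entered a stranded, ribosomal RNA-reduced library with ERCC spike-ins, synthetic RNAs added as a standard.

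Connexins assemble into hexameric channels in the plasma membrane, and channels of adjacent cells dock end to end to form a passage for ions and small molecules. In the heart these junctions carry the action potential from cell to cell. Gja1 (Cx43) is the main connexin of working cardiomyocytes, Gja5 (Cx40) is found in atrial muscle, the fast conduction system and arterial endothelium, and Gjc1 (Cx45) is the connexin of the nodes. Gja4 (Cx37) is an endothelial connexin, Gja3 (Cx46) is best known from the lens, and mouse Gjd3 (Cx30.2) from the atrioventricular node. Gjc3 (Cx29) belongs to myelinating glia, Gja6 (Cx33) to the testis, and Gjb2 (Cx26) to the inner ear, skin and liver.

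Channels dock through extracellular loops that are held by disulphide bonds, and the first loop of each connexin carries 3 cysteines at a fixed spacing. The coding bases of that stretch are shown for the 9 genes because they are the part the family shares, while the levels of the genes differ widely. Each is 12 codons, 5′ to 3′ on the coding strand, from the mm10 transcripts of GENCODE M21, with the 3 cysteine codons in capitals.
Gja1, chr10:56387706-56387741, plus strand: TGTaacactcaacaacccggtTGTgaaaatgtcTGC
Gjc1, chr11:102800984-102801019, minus strand: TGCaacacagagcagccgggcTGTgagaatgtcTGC
Gja3, chr14:57036719-57036754, minus strand: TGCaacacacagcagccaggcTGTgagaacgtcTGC
Gja4, chr4:127312774-127312809, minus strand: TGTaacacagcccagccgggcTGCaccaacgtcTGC
Gja5, chr3:97050788-97050823, plus strand: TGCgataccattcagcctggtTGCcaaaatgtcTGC
Gjd3, chr11:98982822-98982857, minus strand: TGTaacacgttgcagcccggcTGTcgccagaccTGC
Gjc3, chr5:137957797-137957832, minus strand: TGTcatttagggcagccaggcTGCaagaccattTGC
Gja6, chrX:160903740-160903775, minus strand: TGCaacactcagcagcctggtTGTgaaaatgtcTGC
Gjb2, chr14:57100558-57100593, minus strand: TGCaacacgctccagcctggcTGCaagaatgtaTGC

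Of these 36 bases, Gja6 had 32 in common with Gja1, Gjc1 and Gja3 had 28 each, and Gjc3 had the fewest with 18. The second loop, with its own spacing of 3 cysteines over 12 codons, was also found in all 9 coding sequences. Proteins were translated from these coding sequences and aligned end to end, and identity was taken over aligned positions with gaps left out. It ran from 30.8% for Gjd3 with Gjc3 to 65.7% for Gja1 with Gja6, with a median of 42.03% over 36 pairs. The proteins differ in length, with 382 codons in Gja1 and 283 in Gja6, so these are not shares of the longer protein. No stretch of 50 bases in a transcript of one of the 9 genes occurred in a transcript of another. A read lying wholly on such a stretch could thus be assigned to 1 of the 9 genes, apart from sequencing errors and strain differences. In the 1 model used here for each gene, coding sequence lay in 1 exon in 8 of the genes, and in 2 exons in Gjc3. Another model of Gja5 has 2 coding exons.

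The authors deposited 2 quantifications of each library, the first from reads aligned to the transcriptome and the second from an index searched directly with the reads. Values are from the first unless the second is named. The libraries held 41846508 expected counts in heart 1 and 42481559 in heart 2, estimated counts that need not be whole. A count of 0 in them allows up to 3 counts, or 0.0717 CPM (counts scaled to the library total) in heart 1 and 0.0706 CPM in heart 2, which covers counting error only. Ventricular cardiomyocyte markers summed to 10847 TPM in heart 1 and 11711 TPM in heart 2, so the tissue label matched its defining genes. Atrial markers summed to 1246 and 1100 TPM, endothelial markers to 226 and 260 TPM, and conduction system markers to 5.89 and 6.31 TPM. Among the marker lists, those of blood and fat differed most between the hearts, and all 5 erythroid markers and the 5 adipocyte markers averaging at least 50 counts were lower in heart 2 by 2-fold or more. Epithelial and skeletal muscle markers each summed to under 2 TPM.

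Connexin RNA in these hearts was mostly Gja1. It was measured at 117.58 TPM (a level per transcript length, scaled to a common total in each library) in heart 1 and 135.99 TPM in heart 2, against 142.16 and 160.12 TPM for all 20 connexin genes together. Gja1 thus held 83.8% ± 1.57 of connexin TPM (SD, n = 2 hearts). A further 4 genes, Gjc1, Gja3, Gja4 and Gja5, lay between 4.36 and 8.72 TPM, and the remaining 4 stayed under 1 TPM in both hearts. In all, 5 of the 9 reached 1 TPM in both hearts, against 10943 of 22015 nuclear protein-coding genes.

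**Figure D1:**
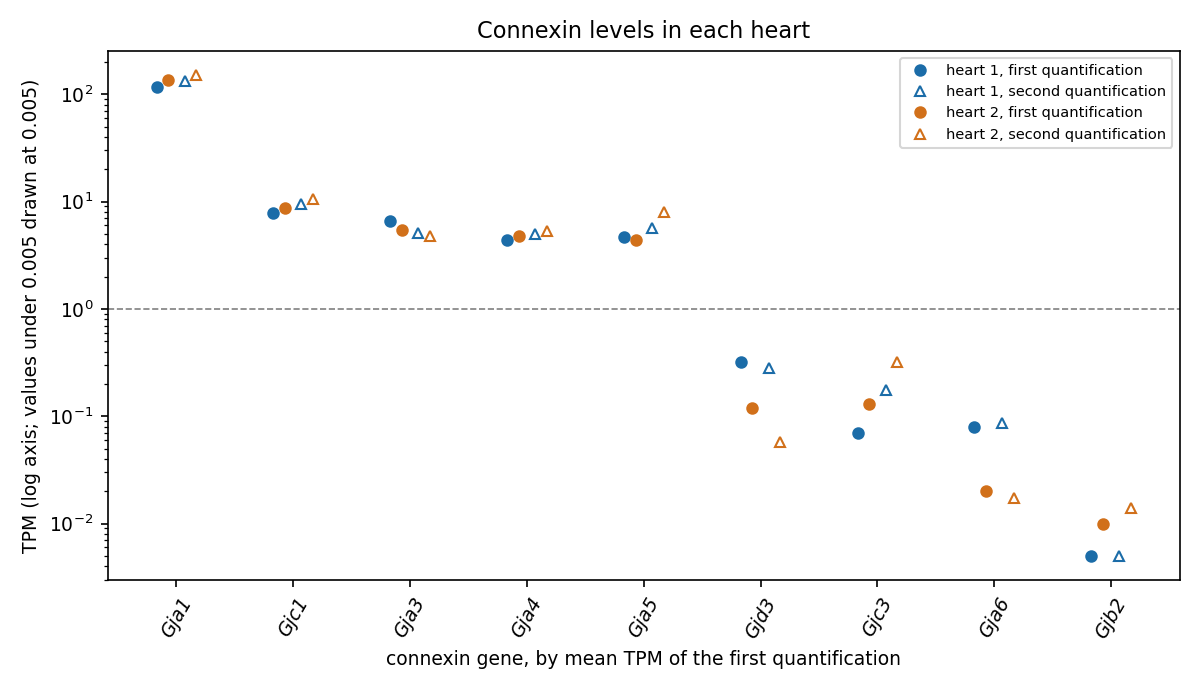
TPM of the 9 connexin genes (log axis) in heart 1 and heart 2, with filled circles for the first quantification and open triangles for the second; each symbol is 1 heart and values under 0.005 are drawn at 0.005. Gja1 lies above 100 TPM in both hearts and both quantifications, 4 genes lie between 4 and 11 TPM, and the remaining 4 are under the dashed line at 1 TPM.

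Gja1 (ENSMUSG00000050953.10, chr10:56377330-56402513, plus strand) gave 11709 expected counts in heart 1 and 13617 in heart 2, or 126.785 ± 13.0 TPM. It ranked 420th by mean TPM among nuclear protein-coding genes, with 98.1% of them below it. Its level per length was 15.3 times that of Gjc1, 21.2 times that of Gja3, 27.7 times that of Gja4 and 28.0 times that of Gja5. Even the lower of its values, in heart 1, was far above the highest value of any other connexin, 8.72 TPM for Gjc1 in heart 2.

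Gjc1 (ENSMUSG00000034520.14, chr11:102799579-102819700, minus strand) was the next most abundant connexin, with 485 counts in heart 1 and 547 in heart 2. Its level was 7.86 and 8.72 TPM, or 8.29 ± 0.608 TPM, and both hearts lay above both values of Gja3. Gja5 (ENSMUSG00000057123.14, chr3:96904693-97077416, plus strand) had 395.3 counts in heart 1 and 335.86 in heart 2. At 4.68 and 4.37 TPM, or 4.525 ± 0.219 TPM, its range overlapped that of Gja4. Gjc1 is the connexin of nodal cells, and Gja5 that of atrial muscle, conducting cells and arterial endothelium. Each made up under 6% of connexin TPM in this whole-organ RNA. In RNA from a whole organ, fewer cells of a type and less RNA per cell cannot be told apart.

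Gja4 (ENSMUSG00000050234.7, chr4:127311421-127314039, minus strand) had 233 counts in heart 1 and 258 in heart 2, which gave 4.36 and 4.81 TPM, or 4.585 ± 0.318 TPM. The arterial endothelial markers Sox17, Efnb2, Hey1, Dll4, Bmx and Sema3g, set beside it because Gja4 is known from endothelium, summed to 32.4 TPM in heart 1 and 33.4 TPM in heart 2. Gja3 (ENSMUSG00000048582.7, chr14:57034460-57058100, minus strand), the lens connexin, had 411 counts in heart 1 and 371 in heart 2. At 6.52 and 5.46 TPM, or 5.99 ± 0.750 TPM, it stood above Gja4 and Gja5 in both hearts in the first quantification.

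The place of Gja3 above Gja4 in heart 2 rested on a short transcript model. Gja3-202, an incomplete model of 284 nt, received 13 counts in heart 1 and 9 in heart 2, which became 2.09 and 1.44 TPM because so short a transcript has few positions a read can come from. Without transcripts under 500 nt, Gja3 stood at 4.43 TPM in heart 1 and 4.02 TPM in heart 2, with heart 2 below the lowest value of Gja4. This setting was chosen after the data were seen. Under it Gja5 stood at 3.80 and 3.18 TPM, below Gja3 in both hearts. The second quantification gave Gja3-202 no counts and placed Gja3 at 5.13 and 4.74 TPM. That range overlaps that of Gja4 at 5.01 and 5.37 TPM. Over all its transcripts, Gja5 stood above Gja3 there in both hearts, at 5.63 and 7.99 TPM. The order of the 4 genes below Gja1 was thus fixed only for Gjc1, which stayed above the others in both quantifications.

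The 4 genes of very low level were described by their counts. Gjd3 (ENSMUSG00000047197.1, chr11:98982180-98983016, minus strand) had 8 counts in heart 1 and 3 in heart 2, or 0.32 and 0.12 TPM, on a single-exon model of 837 nt that is marked incomplete. Gjc3 (ENSMUSG00000056966.7, chr5:137953461-137963098, minus strand) had 9 and 10 counts, or 0.07 and 0.13 TPM. For Gja6 (ENSMUSG00000055691.5, chrX:160902116-160907052, minus strand) the counts were 5 and 1, or 0.08 and 0.02 TPM. Gjb2 (ENSMUSG00000046352.7, chr14:57098600-57104702, minus strand) had 0 counts in heart 1 and 1 in heart 2. Neighbours among Gjd3, Gjc3 and Gja6 overlapped in level, so their order was not resolved at this depth.

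For Gjc3 the 2 quantifications differed. Of the 50-base stretches of Gjc3-201, 1.57% also occur in transcripts of 340 other genes, and the second quantification gave Gjc3 22.2 and 27.6 counts. Schwann cell markers, which mark the glia where Gjc3 is known, summed to 9.47 TPM in heart 1 and 7.97 TPM in heart 2. The relation of Gjc3 to these markers was not tested.

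The other 11 connexin genes were no more abundant. None of them reached 1 TPM in both hearts, and 5 had no count in either heart. The 9 genes together held 99.5% of connexin TPM in heart 1 and 99.7% in heart 2.

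Neighbouring connexin genes differed in level. On chromosome 14, Gja3, Gjb2 and Gjb6 lie within 99.2 kb, and the counts in hearts 1 and 2 were 411 and 371 for Gja3, 0 and 1 for Gjb2, and 0 and 0 for Gjb6.

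The most similar proteins also differed in level. Gja1 and Gja6 were the most alike of the 36 pairs over aligned positions, and they were the first and the eighth of the 9 in mean TPM. The promoters of this pair, 250 bases before to 50 after the RefSeq start on GRCm38.p6, are shown because the proteins are alike and the levels are not. Capitals mark the motif matches a search of both strands found.
Gja1, chr10:56377050-56377349, plus strand: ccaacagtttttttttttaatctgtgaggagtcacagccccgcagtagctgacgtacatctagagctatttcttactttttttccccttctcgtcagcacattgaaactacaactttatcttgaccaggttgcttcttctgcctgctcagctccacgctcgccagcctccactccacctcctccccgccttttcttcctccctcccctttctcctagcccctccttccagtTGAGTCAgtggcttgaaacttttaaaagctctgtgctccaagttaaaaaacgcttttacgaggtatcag
Gja6, chrX:160907003-160907302, minus strand: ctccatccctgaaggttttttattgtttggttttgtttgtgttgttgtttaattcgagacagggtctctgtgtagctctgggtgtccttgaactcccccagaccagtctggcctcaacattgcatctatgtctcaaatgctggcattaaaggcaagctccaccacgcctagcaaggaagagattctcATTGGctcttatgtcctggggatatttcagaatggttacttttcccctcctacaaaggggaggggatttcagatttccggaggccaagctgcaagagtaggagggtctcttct

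The Gja1 window held the AP-1 motif TGACTCA on the minus strand, 19 bases before the RefSeq start, a motif found in 5.20% of 32851 promoter windows of the same length. The Gja6 window held CCAAT on the minus strand, found in 37.4% of windows. Neither window held TATAAA (13.6% of windows), GGGCGG (35.7%), the T-box motif AGGTGTGA (1.28%) or the Nkx2-5 motif TNAAGTG (11.5%). The table had windows for 7 of the 9 genes, and the GC box GGGCGG, on either strand, was in those of Gja3, Gja4, Gja5 and Gjb2. A match describes letters in the window and is not evidence of binding.

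The models Gja1-201 and Gja1-206, and likewise Gjc1-201 and Gjc1-202, differ in their first exon and share most of their sequence, while Gja3 and Gja5 each have a short, incomplete second model and Gja4 has a single one. In the first quantification each gene had the same main transcript in both hearts. Gja1-201, with its first exon at chr10:56377330-56377518, held 98.46% of Gja1 TPM in heart 1 and 98.15% in heart 2. Gja1-206, which starts at a separate first exon, chr10:56379088-56379387, and shares the coding exon, was listed at 0 in both hearts.

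The second quantification divided the same gene almost evenly. It gave Gja1-201 6264 estimated counts in heart 1 and 7003 in heart 2, and Gja1-206 6248 and 7353. Of the 50-base stretches of Gja1-201, 93.7% also occur in Gja1-206, and those found in no other transcript were 49 of 3022 for Gja1-201 and 47 of 3133 for Gja1-206. The gene total differed far less, at 133.0 and 151.7 TPM in the second quantification. The use of the 2 first exons was therefore not settled by these files.

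Gjc1 showed a like pattern at lower depth. Gjc1-202 held 95.3% and 92.62% of Gjc1 TPM in hearts 1 and 2 in the first quantification, and Gjc1-201, with another first exon, was at 0. In the second, Gjc1-202 had 269 estimated counts in heart 1 and 0.112 in heart 2, while Gjc1-201 had 210 and 499.8. The summed level was 9.48 and 10.5 TPM, so the assigned transcript differed between the hearts far more than the gene total. Gjc1-203 stayed at 2.67% and 4.26% in the first quantification and took 4.89% and 8.59% in the second.

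For Gja5, Gja5-201 held 80.54% of TPM in heart 1 and 72.08% in heart 2 in the first quantification. Gja5-202, an incomplete model of 405 nt with the same first exon, held 18.73% and 27.31% from 9.03 and 12.34 counts. The second quantification gave Gja5-202 3.80 and 15.7 estimated counts, which became 1.00 TPM in heart 1 and 4.24 TPM in heart 2. As a result Gja5 stood at 5.63 TPM in heart 1 and 7.99 TPM in heart 2 there, higher in heart 2, although its summed counts were lower in heart 2, at 453.7 in heart 1 and 380.9 in heart 2. From transcripts of 500 nt or more, Gja5 was lower in heart 2 in both quantifications, at 3.80 and 3.18 TPM in the first and 4.63 and 3.75 TPM in the second.

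The third Gja5 model, Gja5-203, begins far upstream at chr3:96904693-96905389. It shares 760 of its 3619 stretches of 50 bases with Zfp697, a zinc finger gene with 277.7 and 269.14 counts in hearts 1 and 2. Gja5 was the only one of the 9 genes with a posterior SD above 0 in the first quantification, at 1.90 counts in heart 1 and 1.66 in heart 2. Gja5-203 held 0.730% and 0.600% of Gja5 TPM in the first quantification and 6.73% and 3.84% in the second. Gja4 has a single annotated transcript, and the second quantification gave it a log2 ratio between the hearts of 0.06, against 0.10 in the first.

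**Figure D2:**
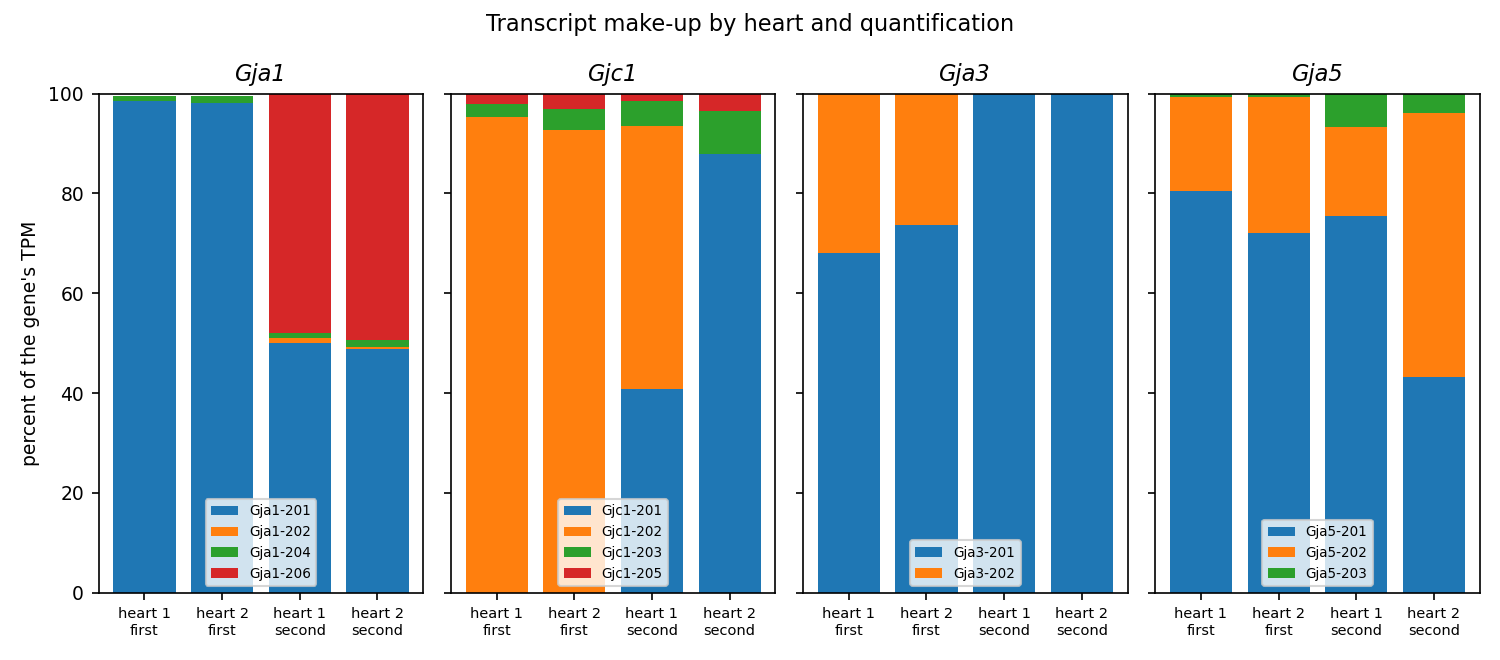
Percent of each gene's TPM held by its transcripts, for Gja1, Gjc1, Gja3 and Gja5, in heart 1 and heart 2 by the first and the second quantification; transcripts under 1% in all 4 bars are not drawn. The first quantification gives nearly all of Gja1 to Gja1-201 and of Gjc1 to Gjc1-202, the second splits Gja1 between Gja1-201 and Gja1-206 and names different main transcripts of Gjc1 and Gja5 in the 2 hearts.

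Between the hearts, none of the measured connexins differed 2-fold. Genes whose expected counts averaged at least 50 over the hearts were called measured, and of 12541 such genes 161 differed 2-fold or more between the hearts, or 1.28%. None of the 5 measured connexins did, which at this background is not a result about connexins. This is a rule of size and not a test, since each side of the ratio is a single heart. The log2 ratio of heart 2 over heart 1, on counts scaled by the trimmed mean of M values (TMM), had a median of 0.10 for the 5 connexins and 0.00052 for all measured genes. The median size of the ratio, whatever its sign, was 0.17 for the 5 connexins and 0.11 for all measured genes.

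Gja1 was higher in heart 2 by a log2 ratio of 0.17, with an exact 95% interval for counting error of 0.14 to 0.21. Of measured genes, 32.4% had a larger ratio in size. With scaling to the spike-ins the ratio of Gja1 was 0.25 (0.21 to 0.28), outside the first interval. All 5 ventricular cardiomyocyte markers were also higher in heart 2, with a median log2 ratio of 0.089, and their part in the result for Gja1 was not tested. Gjc1 had a ratio of 0.13 (-0.05 to 0.31) and Gja4 one of 0.10 (-0.16 to 0.36). Both intervals include 0, but scaling to the spike-ins moves that of Gjc1 to 0.02 to 0.38.

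Gja5 was lower in heart 2 by a log2 ratio of -0.28 (-0.49 to -0.06), the largest in size of the 5, and 17.4% of measured genes had a larger one. Scaled to the spike-ins, its interval was -0.42 to 0.01, which includes 0. The 5 atrial markers were lower in heart 2 as well under TMM scaling, with a median log2 ratio of -0.44. Among them Myl7, Myl4 and Sln, genes of atrial contraction, had ratios of -0.50, -0.44 and -0.50. Nppa had -0.02 (-0.055 to 0.008) and Bmp10 had -0.05 (-0.14 to 0.03), and both intervals include 0. Scaling to the spike-ins shifted all ratios up by 0.074, more than the size of either. For the other sites where Gja5 is known, 4 of 6 arterial endothelial markers were higher in heart 2 (median log2 ratio 0.05), and the 4 measured conduction system markers had a median of -0.06, with 1 of them higher. All 5 mesothelial markers were lower in heart 2, with a median of -0.39, as were 4 of 6 fibroblast markers, with a median over the 6 of -0.22. No atrial, arterial or conduction marker was at 0, but the conduction marker Isl1 had only 1 count in each heart. The part of these cell types in the value of Gja5 was not tested. Gja3 had a ratio of -0.19 (-0.40 to 0.01), whose interval includes 0.

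**Figure D3:**
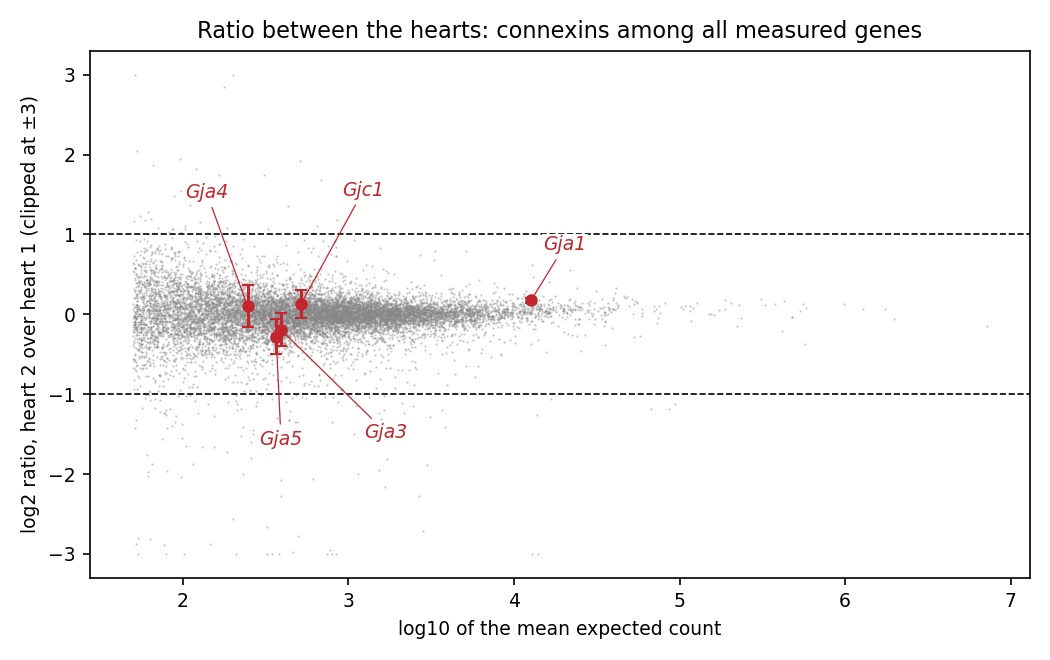
Log2 ratio of heart 2 over heart 1, clipped at ±3, against the log10 of the mean expected count for the 12541 measured genes (grey), with the 5 measured connexins in red and bars for their 95% counting intervals. All 5 connexins lie well inside the dashed 2-fold lines, with Gja1 far to their right in count.

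Genes that act with connexins were described by lists. The list of junction scaffold and intercalated disc partners holds 18 genes, and 17 were measured. None of them differed 2-fold, and 13 of 17 were higher in heart 2, against 50.1% of all measured genes, with a median log2 ratio of 0.03. Dsp, the desmoplakin that ties desmosomes to intermediate filaments, was highest by mean level, at 169.76 TPM in heart 1 and 195.2 TPM in heart 2. Ctnna1, the alpha-catenin of adherens junctions, was next by mean and above Dsp in heart 1, at 172.53 and 189.22 TPM. Per length, both stood above Gja1 in each heart.

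Connexins turn over quickly, and their delivery along microtubules and their ubiquitin-dependent removal have dedicated genes. All 12 genes of the trafficking and turnover list were measured, and none differed 2-fold, with 7 higher in heart 2 and a median log2 ratio of 0.02. Nedd4, a ubiquitin ligase that binds the Gja1 protein, was highest at 134.43 TPM in heart 1 and 135.27 TPM in heart 2. Dctn1, a dynactin subunit that links cargo to microtubule motors, was at 49.43 and 51.3 TPM.

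Channel opening and assembly are controlled by phosphorylation of the connexin tail. The list of kinases and phosphatases had 12 of 12 genes measured, none of them different 2-fold, with 5 higher in heart 2 and a median log2 ratio of -0.01. Prkaca, the catalytic subunit of protein kinase A, was at 127.18 TPM in heart 1 and 132.7 TPM in heart 2. Ppp1ca, a catalytic subunit of protein phosphatase 1, was at 121.13 and 120.46 TPM.

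Of 15 genes listed as regulators of cardiac connexin transcription, mostly transcription factors, 14 were measured and 1 differed 2-fold. Fos, an early-response gene and partner of Jun in AP-1, had 180 counts in heart 1 and 50 in heart 2, a log2 ratio of -1.87 (-2.38 to -1.43). Jun itself had a ratio of -0.17 (-0.26 to -0.08), and it is named after its values were seen because the AP-1 motif lies in the Gja1 window. Hopx, a homeodomain protein of cardiomyocytes, was highest at 156.83 and 163.79 TPM in hearts 1 and 2, and Gata4, a cardiac zinc finger factor, was at 29.09 and 33.6 TPM. The list had 8 genes higher in heart 2 and a median log2 ratio of 0.03.

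Pannexins form channels in the membrane of single cells and are related to connexins in topology, not in sequence. Panx1 had 133 counts in heart 1 and 90 in heart 2, or 3.34 and 1.72 TPM, with a log2 ratio of -0.60 (-1.01 to -0.21), below the 2-fold size. Panx2 had 52 and 54 counts, or 0.49 TPM in both hearts, and Panx3 had none. In level, Panx1 was thus below each of the 5 connexins at 1 TPM or more.

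**Figure D4:**
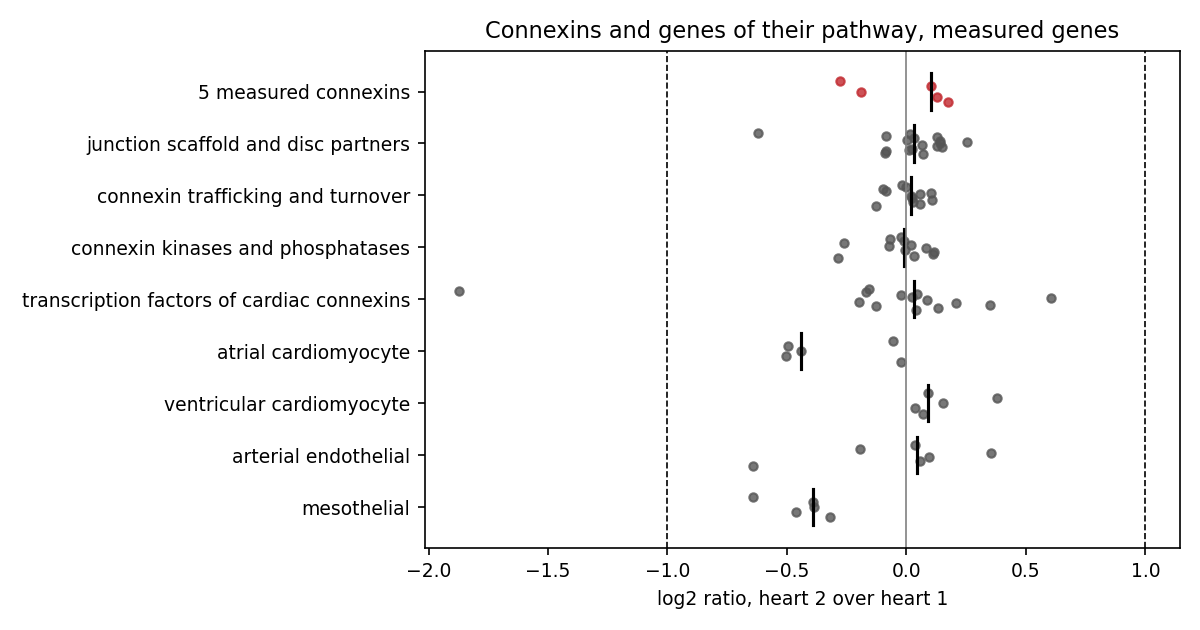
Log2 ratio of heart 2 over heart 1 for the 5 measured connexins (red), the measured genes of 4 pathway lists and of 4 cell type marker lists (grey); each point is 1 gene, black bars are medians and dashed lines mark 2-fold. The 5 connexins lie between -0.28 and 0.17 and the pathway genes between -0.62 and 0.60, apart from Fos at -1.87; the 5 atrial markers lie between -0.50 and -0.02 and the 5 mesothelial markers between -0.64 and -0.32.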

How the data were processed

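The authors deposited expected counts, TPM and FPKM for genes and transcripts, which per the sample notes come from transcriptome alignments on mm10 with GENCODE M21 and are called the first quantification. For each transcript the authors deposited its percent of the gene's TPM. The authors also deposited estimated counts and TPM per transcript from an index searched directly with the reads, called the second quantification and summed here per gene. Which tools made them is not stated. TPM is scaled over all listed entries, which include spike-ins. Reads of the B6 and CAST alleles were not separated.

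The 9 genes and all lists were chosen with earlier results of these data known. Named are the 9 genes, their transcripts at 5% or more of gene TPM in either heart, other connexins averaging at least 10 expected counts, and from each pathway list the 2 of highest mean TPM and any past the 2-fold rule. Some results this rule covers are not reported here. Gjb6, Zfp697, Jun, Panx3, Gja1-204, Gjc1-203, Gja5-203 and Shox2, and the single markers named, were chosen after their values were seen. Ratios used TMM factors (edgeR 4.0.16, R 4.3.3, on expected counts rounded to whole numbers) and a prior count of 1. Their 95% intervals are exact Clopper-Pearson intervals on the 2 counts and cover counting error only, since no molecular identifiers are named and copies of 1 molecule may count more than once. No test was run, as there is 1 group. The ratio rule and interval were tested on simulated data. Alternatives covered thresholds, units, scalings (DESeq2 1.42.0 among them), filters, the second quantification and each heart alone. Proteins were translated and aligned with Biopython 1.88.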

Additional observations from a re-analysis of the deposited data

How the results depend on the processing

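The count of connexins at 1 TPM or more stayed at 5 under 0.5 TPM, FPKM, nuclear protein-coding scaling, the second quantification, transcripts of 500 nt or more and either heart alone, and was 3 at 5 TPM, where Gja4 and Gja5 dropped out. The Gja1 share was 82.7% to 84.9% with either heart left out, 83.5% in the second quantification and 88.9% on expected counts, which are not per length. Without a count filter 2 of the 9 genes differed 2-fold, against 4118 of all 55536 genes. They were Gjd3 and Gja6, both under 10 counts in each heart, too few for a result about connexins. At 1.5-fold, and under every other setting run, the number was 0. Over all genes, 161 of 12541 measured genes differed 2-fold, and of the same 12541, 535 differed 1.5-fold and 57 differed 3-fold. With other count filters, which change the number of genes compared, the 161 became 561 at a mean count of 10 and 83 at 200. The number of measured connexins with the same main transcript in both hearts was 5 in the first quantification and 2 in the second. None of the 25 alternative log2 ratios of the 5 measured connexins changed sign, and the scaling to spike-ins shifted all ratios by 0.074, after which the counting interval of Gja5 included 0 and that of Gjc1 did not. Scaling TPM to nuclear protein-coding genes raised all 9 levels, that of Gja1 to 335 TPM. No paired analysis was possible because there is 1 group. Depth limits the 4 genes under 1 TPM, which rest on 22 counts in heart 1 and 15 in heart 2.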

Other observations

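Gja1-204, annotated as a retained intron and running through both first exons of Gja1, had 120 expected counts in heart 1 and 204 in heart 2, or 1.08 and 1.82 TPM. It was 0.910% and 1.34% of Gja1 TPM. The second quantification gave it 139 and 220 estimated counts, so this transcript, 84.0% of whose 50-base stretches occur in no other transcript, was placed alike by both approaches, unlike Gja1-201 and Gja1-206. Shox2, a pacemaker cell factor below the count filter, had 47 counts in heart 1 and 19 in heart 2.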
